A study of Mus musculus with 2 samples.

Results

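Myadm and Trim59 are 2 of the 31053 genes counted by single-cell RNA-seq in back skin of a control mouse and of a mouse in which the microRNA miR-205 had been induced. The pair was chosen by measured values of these same libraries. Both genes were among those with the lowest induced-over-control ratio in cells that resemble hair follicle stem cells (HF-SCs) of the bulge. Their ratio in those cells is therefore given as a description, and the account turns to how the genes behaved in the other skin populations and in the rest of their families.

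Myadm encodes a protein with several membrane spans and MARVEL domains that gathers in lipid rafts, and it has been linked to the small GTPase Rac1 and to the ERM proteins that tie membrane to cortical actin. Trim59 encodes a tripartite motif protein with a RING domain, the hallmark of E3 ubiquitin ligases, and a membrane anchor, and it has been tied to the adaptor ECSIT upstream of NF-kB. The bulge is the niche of quiescent HF-SCs, the hair germ (HG) below it holds the progenitors that start hair growth, and miR-205 is an abundant microRNA of stratified epithelia that lowers mRNAs through pairing of its seed.

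The control library came from 1 mouse and the induced library from 1 mouse, both labelled C57BL/6, matched for sex, carrying a Krt14-H2B-GFP reporter and taken at postnatal day 53. The induced mouse received doxycycline chow for 4 days from day 49. Extraction notes and the study's methods state that the control mouse was fed doxycycline as well, whereas its own treatment label reads untreated. Induction relied on a TRE2-miR-205 transgene, first made in FVB mice, under a Krt14-driven rtTA activator, so that keratinocytes were the intended target. The control mouse's genotype for these 2 transgenes is not given in the labels. Epidermal, follicular and dermal cells were mixed at 3:5:2 by sorting, aiming at about 5000 cells per library, so population sizes were set in part by the sort.

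With 1 library per group there was no replicate check and no test of induction, and any other difference between the mice cannot be told apart from it. Values below are unique molecular identifiers (UMIs, counted RNA molecules), UMIs scaled to the population's total (CPM), and log2 ratios of CPM, induced over control. Ranges in brackets are 95% intervals that cover counting error only. Of 4545 control and 4264 induced barcodes, 3936 and 3628 passed the cell filter, with medians of 12198.5 and 11752.5 UMIs per cell. The libraries shared 11 barcodes. Mature miR-205 is not read by this assay. Its host transcript 4631405K08Rik (Mir205hg) stood at 103 CPM in control and 106 CPM in induced cells over all kept cells, and at 193 and 121 CPM in HF-SC-like cells.

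Cells were grouped into 24 clusters without using Myadm or Trim59. Named populations carry the suffix "-like" because they rest on marker genes, and clusters without a clear marker set keep their number. HF-SC-like cells were clusters 4 and 15, with 357 control and 351 induced cells. Both clusters had raised Cd34, Krt24, Krt15, Postn and Lhx2, and Krt24 was among the 10 leading genes of each, while cluster 4 also had the inner bulge keratin Krt6a there. Of the other HF-SC markers, Sox9 was raised in cluster 4 alone, and Nfatc1 and Foxc1 in neither. The 8 HF-SC markers summed to 12426 CPM in control and 16238 CPM in induced HF-SC-like cells.

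The sequences bear on whether either mRNA carries a site for the induced microRNA. The mature strand is shown 5′ to 3′ with the seed, bases 2 to 8, in capitals, from RefSeq on GRCm38.p6 (chr1:193507503-193507524, minus strand).
mmu-miR-205-5p: uCCUUCAUuccaccggagucug

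A transcript pairs with all 7 seed bases where it holds ATGAAGG. The longest annotated Trim59 3′ UTR, 1506 bases on the minus strand of NCBIM37, held 1 such match, starting at UTR base 1132. It is shown with its flanks from chr3:68839566-68839595 of that build, the match in capitals.
Trim59 3′ UTR: ttgaagatgcaATGAAGGtgaggggaaatt

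The longest annotated Myadm 3′ UTR, 1659 bases on the plus strand of chromosome 7, held neither ATGAAGG nor the shorter TGAAGG. A 7-base match is a common feature. Among 3′ UTRs whose length was within 20% of that of Trim59, 12.8% of 2756 held ATGAAGG, and within 20% of that of Myadm, 13.8% of 2780 did. The shorter TGAAGG was held by 43.1% of the UTRs near Trim59 in length and by 45.7% of those near Myadm. These matches are letters in an annotation and no measure of binding.

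In HF-SC-like cells, Myadm (ENSMUSG00000068566; GRCm38.p6, chr7:3289038-3299355) had 1159 UMIs in the control library and 300 UMIs in the induced library. These were 331 CPM (312 to 351) and 86.2 CPM (76.7 to 96.5). The log2 ratio was −1.94 (−2.13 to −1.76), a level 3.83-fold lower in the induced library. Trim59 (ENSMUSG00000034317; GRCm38.p6, chr3:69035292-69044742) had 591 control and 156 induced UMIs there, which were 169 CPM (155 to 183) and 44.8 CPM (38.1 to 52.4). Its log2 ratio was −1.91 (−2.18 to −1.66), 3.76-fold lower. No other RefSeq gene overlapped either locus.

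Among 3688 genes with at least 200 UMIs in these cells, Myadm ranked 6 and Trim59 ranked 7 from the lowest ratio. Just below them lay Plaur, the urokinase receptor, at −2.13, the chemokine gene Cxcl1 at −2.12 and the transcriptional cofactor Lbh at −1.99. Just above them lay the matrix protein gene Thbs1 at −1.87, the kinase gene Plk2 at −1.86 and Eva1a at −1.84. Of 9582 genes with at least 20 UMIs in HF-SC-like cells, 2.3% had a log2 ratio at or below −1 and the median was 0.09. Nothing is read from that share about the pair, since this contrast selected it.

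The difference lay in many cells rather than in a few. To compare cells at equal depth, each was thinned to 5000 UMIs, which left 333 control and 337 induced HF-SC-like cells and dropped 24 and 14. At that depth 73.6% of control cells (68.5 to 78.2) and 31.5% of induced cells (26.5 to 36.7) held a Myadm UMI. The unthinned shares were 83.2% and 45.3%, at median depths of 9720 and 9912 UMIs. Cells with 3 or more Myadm UMIs made up 23.7% of thinned control cells and 2.37% of thinned induced cells.

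For Trim59 the thinned shares were 47.1% (41.7 to 52.7) and 20.8% (16.6 to 25.5), and the unthinned shares were 59.4% and 28.5%. Cells with 3 or more Trim59 UMIs were 9.31% of the control and 0.593% of the induced cells. No skin population is known to lack these genes, so low shares elsewhere serve as the background. In suprabasal cluster 6 (medians of 15813 and 16604 UMIs) the same thinned share was 1.88% and 0.529% for Myadm, and 0.469% and 0.529% for Trim59. After thinning, Trim59 was found in 0 of 74 and 0 of 75 antigen-presenting-like cells (9626 and 10678 UMIs), which allows shares of up to 4.05% and 4.00%. The HF-SC-like shares lay above these values in each library. As these populations were taken for their low shares, that order is no test.

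**Figure D1:**
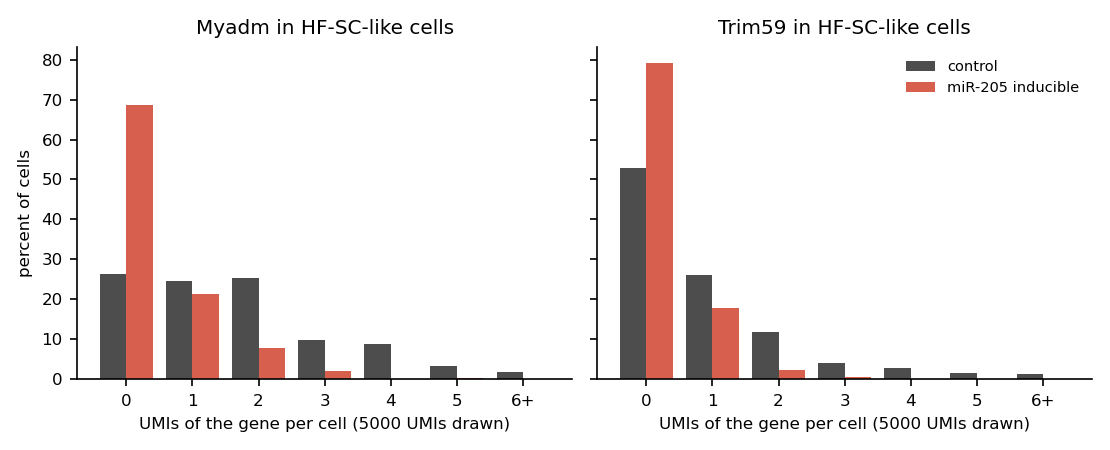
Percent of HF-SC-like cells (vertical axis) by the number of Myadm or Trim59 UMIs per cell after thinning to 5000 UMIs (horizontal axis; the last bin holds 6 or more), for 333 control cells (grey) and 337 miR-205 inducible cells (red). Cells without a Myadm UMI go from 26.4% to 68.5% and cells without a Trim59 UMI from 52.9% to 79.2%.

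Within HF-SC-like cells, those with Myadm did not hold Trim59 more often than those without it. In the thinned control HF-SC-like cells, 113 cells held both, 132 held Myadm alone, 44 held Trim59 alone and 44 held neither. A Trim59 UMI was found in 46.1% of cells with Myadm, and in 44 of the 88 others. In the induced library the counts were 20, 86, 50 and 181 cells, and the Trim59 share was 18.9% in cells with Myadm and 21.6% in the others. Over all kept cells, which mix populations, the order was the other way, with Trim59 in 18.8% of cells with Myadm and 12.7% of the others in control, and in 9.46% and 8.04% in the induced library. These shares are a description of sparse counts.

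The HF-SC-like clusters differed in the size of the ratio. In cluster 4, with 266 control and 223 induced cells, Myadm went from 368 to 81.0 CPM, a log2 ratio of −2.18 (−2.41 to −1.96). In cluster 15, with 91 and 128 cells, it went from 193 to 96.9 CPM, a ratio of −0.99 (−1.36 to −0.62). Trim59 followed the same order, at −2.24 (−2.59 to −1.92), from 178 to 37.5 CPM, in cluster 4 and −1.15 (−1.62 to −0.69), from 133 to 59.9 CPM, in cluster 15. The intervals of the 2 clusters do not overlap for either gene. Krt14, whose promoter drives the activator, stood at 10794 CPM in control cluster 4 and 4398 CPM in control cluster 15. The part of Krt14 in this difference was not tested.

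Myadm was lower in the induced library in nearly all keratinocyte populations. Over all kept cells it went from 9363 to 2260 UMIs, or from 185 CPM (181 to 189) to 49.8 CPM (47.8 to 51.9), which gave −1.89 (−1.96 to −1.83) on the log2 scale. Outside HF-SC-like cells the log2 ratio was −1.90 (−1.97 to −1.83). Of 14484 genes tested over all kept cells, 1.09% lay at or below −1. Because every population comes from the same 2 mice, agreement among populations is no replicate of the comparison.

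In the interfollicular epidermis (IFE), basal cells ranked first for Myadm in the control library, with an interval that overlaps that of melanocyte-like cells, and suprabasal cells had the lowest ratio. Myadm in IFE basal-like cells, the Krt5 and Krt14 layer, was 376 CPM (363 to 388) in control and 87.1 CPM (79.9 to 94.8) in the induced library. Its log2 ratio was −2.11 (−2.24 to −1.98), where 1.8% of genes lay at or below −1. In IFE suprabasal-like cells, which have left the basal layer, it was 54.1 CPM (48.8 to 59.7) and 4.35 CPM (2.87 to 6.33), a ratio of −3.61 (−4.26 to −3.07) beside 1.75% of genes. Most of these UMIs came from cluster 10, marked by Krt1, Krt10 and Mt4, where 371 control UMIs stood against 20 induced UMIs and the ratio was −3.92 (−4.68 to −3.30). In cluster 6, marked by loricrin (Lor), the counts were 19 and 7 UMIs.

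The unnamed keratinocyte clusters spread widely. Myadm went from 180 to 26.2 CPM in cluster 1, led by Tnfsf18, Gjb2 and Ccl2, a log2 ratio of −2.78 (−3.08 to −2.50), where 1.5% of genes lay at or below −1. In cluster 13, high in Krt5 and Krt14, it went from 252 to 46.7 CPM, −2.42 (−2.83 to −2.05), beside 2.09% of genes. In cluster 2, led by Rapgef5, Mgp and Sostdc1, it went from 117 to 34.1 CPM, −1.78 (−2.08 to −1.49), beside 1.27% of genes. In cluster 8, led by Col4a4, Pthlh and Bdnf, the difference was smaller, from 120 to 69.2 CPM, −0.79 (−1.12 to −0.47), where 2.1% of genes passed the fold. Cluster 8 also had the HF-SC markers Postn, Lhx2, Sox9 and Nfatc1 raised, beside markers of other classes.

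Among follicle populations, hair germ-like cells, with Lgr5 but also the smooth muscle gene Tagln among their leading genes, went from 158 to 50.2 CPM of Myadm, a log2 ratio of −1.65 (−1.95 to −1.37) beside 2.21% of genes. Upper HF-like cells, marked by Krt79 and Defb6, went from 34.5 to 10.1 CPM, −1.76 (−2.39 to −1.20), beside 1.25% of genes. Sebaceous gland-like cells went from 85.3 to 18.9 CPM, −2.16 (−2.64 to −1.73), beside 4.06% of genes. Cycling-like cells went from 261 to 73.5 CPM, −1.82 (−2.10 to −1.56), beside 2.25% of genes.

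Inner bulge-like cells, the Krt75 and Fgf18 layer inside the stem cells, stood apart from all of these. Myadm was low there in both libraries, with 23 UMIs in 171 control cells and 52 UMIs in 381 induced cells. The levels were 17.8 CPM (11.3 to 26.7) and 17.7 CPM (13.2 to 23.2), a log2 ratio of −0.03 (−0.74 to 0.77). That interval overlapped the interval of cluster 8 and of no other keratinocyte population. In all, Myadm lay at or below −1 in 10 of 12 keratinocyte populations, and the interval lay below 0 in 11 of 12.

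**Figure D2:**
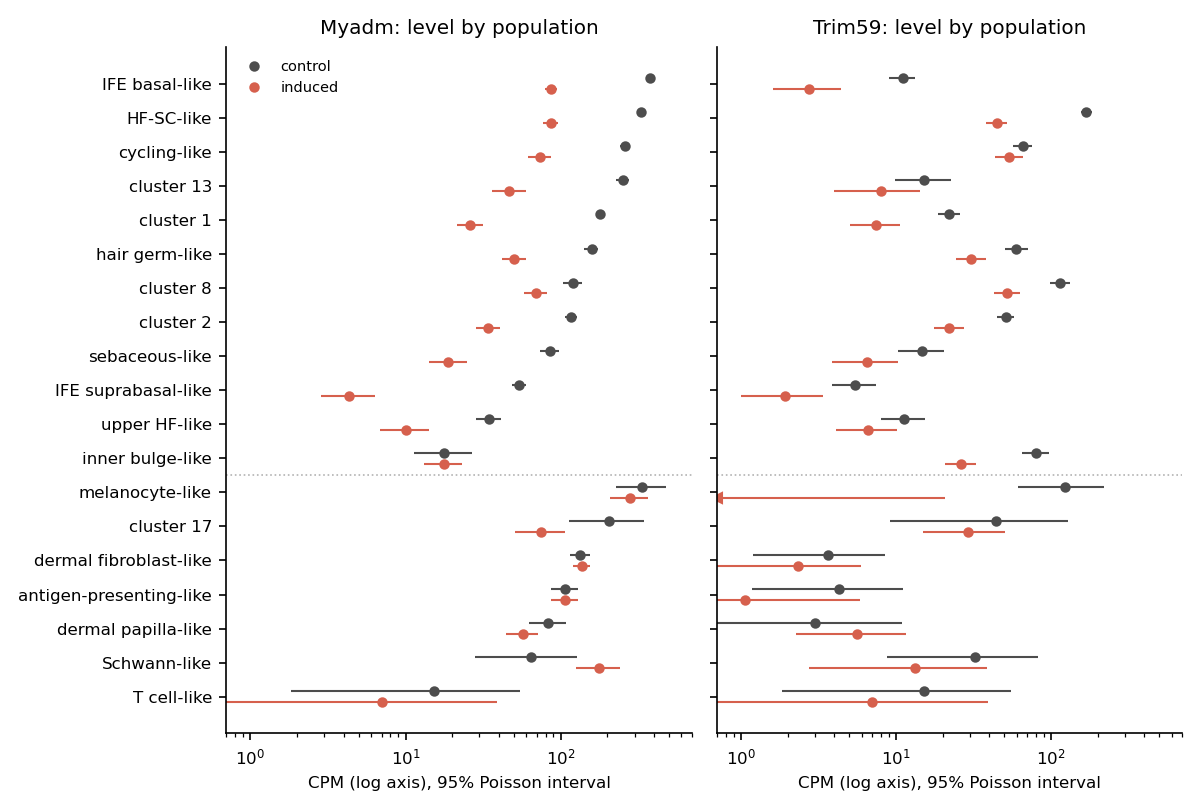
Level of Myadm (left) and Trim59 (right) in CPM on a log axis for 12 keratinocyte populations (above the dotted line) and 7 other populations (below it), control in grey and induced in red, with 95% Poisson intervals that run off the axis where they reach below 0.7 CPM. Myadm points part in every keratinocyte row but inner bulge-like, at 17.8 and 17.7 CPM, and the triangle at the left edge marks Trim59 at 0 UMIs in induced melanocyte-like cells.

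Outside keratinocytes Myadm showed no common direction. Dermal fibroblast-like cells, which express collagen genes, held 182 and 236 UMIs, or 133 CPM (115 to 154) and 137 CPM (120 to 156), a log2 ratio of 0.04 (−0.25 to 0.33). Antigen-presenting-like cells, including Langerhans cells, stood at 107 and 107 CPM, 0.01 (−0.41 to 0.42). Melanocyte-like cells had the highest induced level, 337 CPM (227 to 481) in control and 280 CPM (208 to 369) in induced cells, with a ratio of −0.28 (−0.95 to 0.44). None of these intervals left 0.

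Dermal papilla-like cells went from 83.1 to 57.0 CPM of Myadm, a ratio of −0.55 (−1.07 to −0.01) whose interval barely left 0. Cluster 17, with T cell markers, Gzmb and Icos, held 14 UMIs in 17 control cells and 31 UMIs in 78 induced cells, a ratio of −1.49 (−2.41 to −0.44). Schwann-like cells went the other way, from 8 UMIs in 26 cells to 40 UMIs in 42 cells, a ratio of 1.39 (0.34 to 2.76). The 5 highest Schwann-like cells held 75.0% of the control and 57.5% of the induced Myadm UMIs. Their ratio was 0.82 both under 5% mitochondrial UMIs and without the highest-scoring doublets. The first of these values left out 22 of the 26 control cells and 7 of the 8 control UMIs. T cell-like cells held 2 and 1 UMIs and get no ratio.

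Krt14 RNA was present at 250 to 1652 CPM in the control and 183 to 1338 CPM in the induced libraries of these 7 non-keratinocyte populations, against 9447 and 8216 CPM in HF-SC-like cells. It was lower in the induced library in 6 of the 7, most of all in Schwann-like cells, from 864 to 204 CPM. How far free or attached keratinocyte RNA enters the Myadm values there was not tested.

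Trim59 had a narrower pattern of expression. Over all kept cells it went from 1852 to 737 UMIs, or from 36.6 CPM (35.0 to 38.3) to 16.2 CPM (15.1 to 17.5), which gave −1.17 (−1.30 to −1.05) on the log2 scale. Without HF-SC-like cells the log2 ratio was −0.95 (−1.09 to −0.81). In control, HF-SC-like cells ranked first at 169 CPM, ahead of cluster 8 at 114 CPM (97.9 to 132). Only melanocyte-like cells, at 124 CPM (61.7 to 221) from 11 UMIs, came between them, and their interval overlaps both neighbours.

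Trim59 was also lower in inner bulge-like cells. This population held 103 UMIs in control and 77 in the larger induced population, or 79.7 CPM (65.1 to 96.7) and 26.2 CPM (20.7 to 32.7), a log2 ratio of −1.60 (−2.05 to −1.17), where 1.5% of genes lay at or below −1. The interval for Trim59 in these cells does not overlap that for Myadm, at −0.03 (−0.74 to 0.77). Most of these cells, 158 of 171 and 350 of 381, had 5% mitochondrial UMIs or more, and within them the Trim59 ratio was −1.63 (−2.09 to −1.19).

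Trim59 was lower in the other follicle populations too. Hair germ-like cells went from 59.8 to 30.5 CPM of Trim59, a log2 ratio of −0.97 (−1.39 to −0.57), and to −1.39 with cells under 5% mitochondrial UMIs alone. Cluster 8 went from 114 to 52.0 CPM, −1.13 (−1.49 to −0.78), and cluster 2 from 51.0 to 22.1 CPM, −1.20 (−1.60 to −0.83). Upper HF-like cells had 39 and 21 UMIs, −0.75 (−1.60 to 0.04), which did not leave 0.

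Cycling-like cells showed the smallest Trim59 difference among keratinocyte populations. They held 193 UMIs in 149 control cells and 99 UMIs in 88 induced cells, or 65.6 CPM (56.7 to 75.6) and 53.9 CPM (43.8 to 65.6), a log2 ratio of −0.28 (−0.65 to 0.07). In the induced library these cells ranked first for Trim59, ahead of cluster 8 at 52.0 CPM and HF-SC-like cells at 44.8 CPM, although these 3 intervals overlap. The 5 highest cells held 37.4% of the induced cycling-like UMIs. Myadm in the same cells had a ratio of −1.82, and the intervals for the genes do not overlap.

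Trim59 was scarce in IFE populations and low in cluster 1, cluster 13 and sebaceous gland-like cells. IFE basal-like cells had 105 and 17 UMIs of Trim59, with a log2 ratio of −1.96 (−2.83 to −1.25). IFE suprabasal-like cells had 39 and 12 UMIs, −1.44 (−2.55 to −0.52). Cluster 1 had 152 and 31 UMIs, −1.54 (−2.16 to −0.99), sebaceous gland-like cells 35 and 18 UMIs, −1.15 (−2.07 to −0.31), and cluster 13 had 25 and 11 UMIs, −0.89 (−2.10 to 0.15). Trim59 thus lay at or below −1 in 8 of 12 keratinocyte populations, with the interval below 0 in 9 of 12.

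None of the 7 other populations reached 20 Trim59 UMIs over both libraries. Dermal fibroblast-like cells held 5 and 4 UMIs, dermal papilla-like cells 2 and 7 UMIs, antigen-presenting-like cells 4 and 1 UMIs. Melanocyte-like cells held 11 UMIs in 24 control cells and 0 UMIs in 29 induced cells, where a count of 0 allows up to 20.7 CPM. The control interval, 61.7 to 221 CPM, lies above that limit, but its 11 UMIs came from 3 cells. With under 20 UMIs in each of these populations, no ratio was formed and no difference is read from them.

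**Figure D3:**
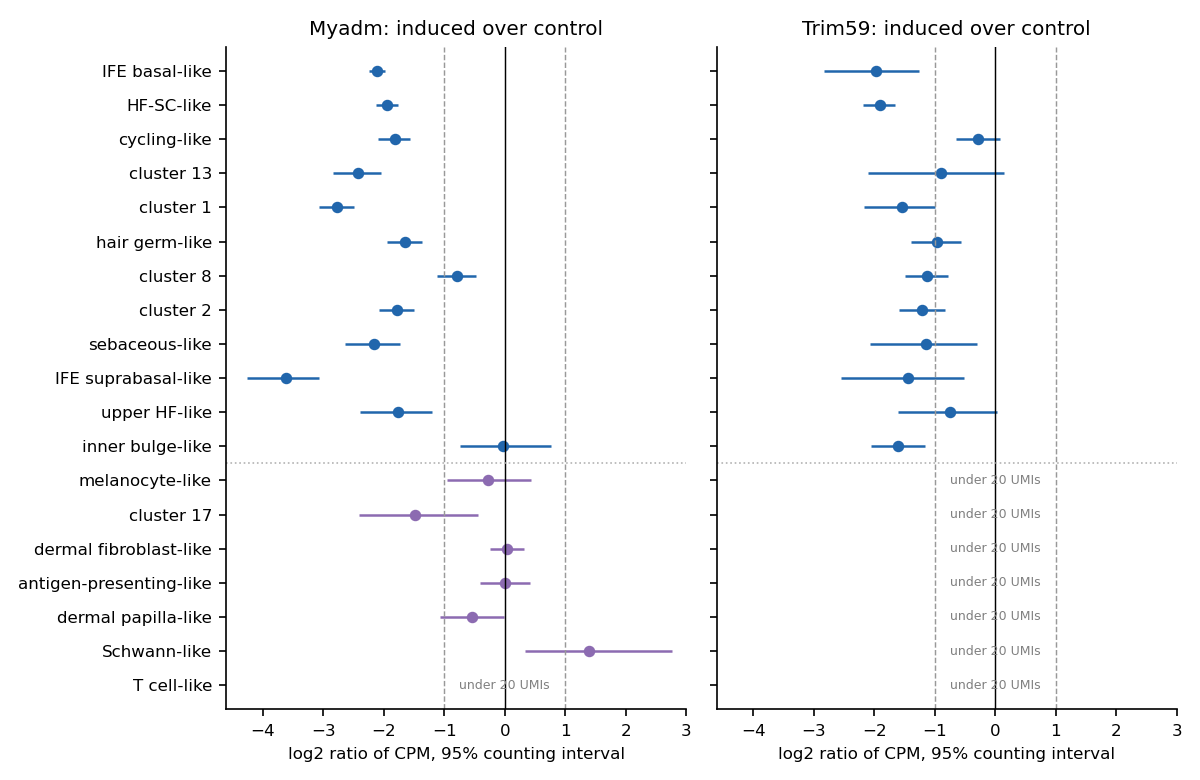
Log2 ratio of CPM, induced over control, for Myadm (left) and Trim59 (right), with 95% counting intervals, for keratinocyte populations (blue, above the dotted line) and other populations (purple); dashed lines mark −1 and 1, and rows under 20 UMIs have no point. Myadm lies near 0 in inner bulge-like cells at −0.03, and Trim59 lies nearest to 0 in cycling-like cells at −0.28.

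The genes thus had unlike profiles across the skin. Over the 15 populations with at least 50 control cells, Pearson's r between their log2(CPM + 1) levels was 0.16 in the control and 0.12 in the induced library. Among 6985 genes with at least 500 control UMIs, those most like Myadm in control were the cotransporter gene Slc12a4 (r = 0.87), the autophagy gene Atg5 (0.85), the surface antigen gene Thy1 (0.84), the efflux pump gene Abcg2 (0.82) and the DNA repair gene Parp1 (0.82). In the induced library these fell to between 0.69 for Slc12a4 and −0.09 for Atg5. Those most like Trim59 were the growth factor gene Ptn (0.94), the transcription factor gene Nfib (0.93), Fryl (0.89), the p53 target Phlda3 (0.88) and the matrix gene Egfl6 (0.87). Their induced r stayed between 0.73 for Fryl and 0.93 for Ptn.

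In HF-SC-like cells the log2 ratios of these 10 genes ran from −0.73 for Thy1 to 0.82 for Egfl6. All r values describe populations that share 1 library and its depth, and each was picked as the highest of many.

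The Myadm ratio was nearest to 0 where Krt14 was lowest. Inner bulge-like cells had the lowest control Krt14 of the 12 keratinocyte populations, 363 CPM, and cluster 8 the next, 3090 CPM. These were the populations with the Myadm ratios nearest to 0. The order did not hold above them, since IFE suprabasal-like cells, at 4445 CPM of Krt14, had the lowest Myadm ratio, and IFE basal-like cells, at 18316 CPM, were at −2.11. Trim59 was at −1.60 in inner bulge-like cells despite the low Krt14. Krt5, the partner keratin, was 5298 CPM in those cells. The activator itself was not measured and its part was not tested.

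**Figure D4:**
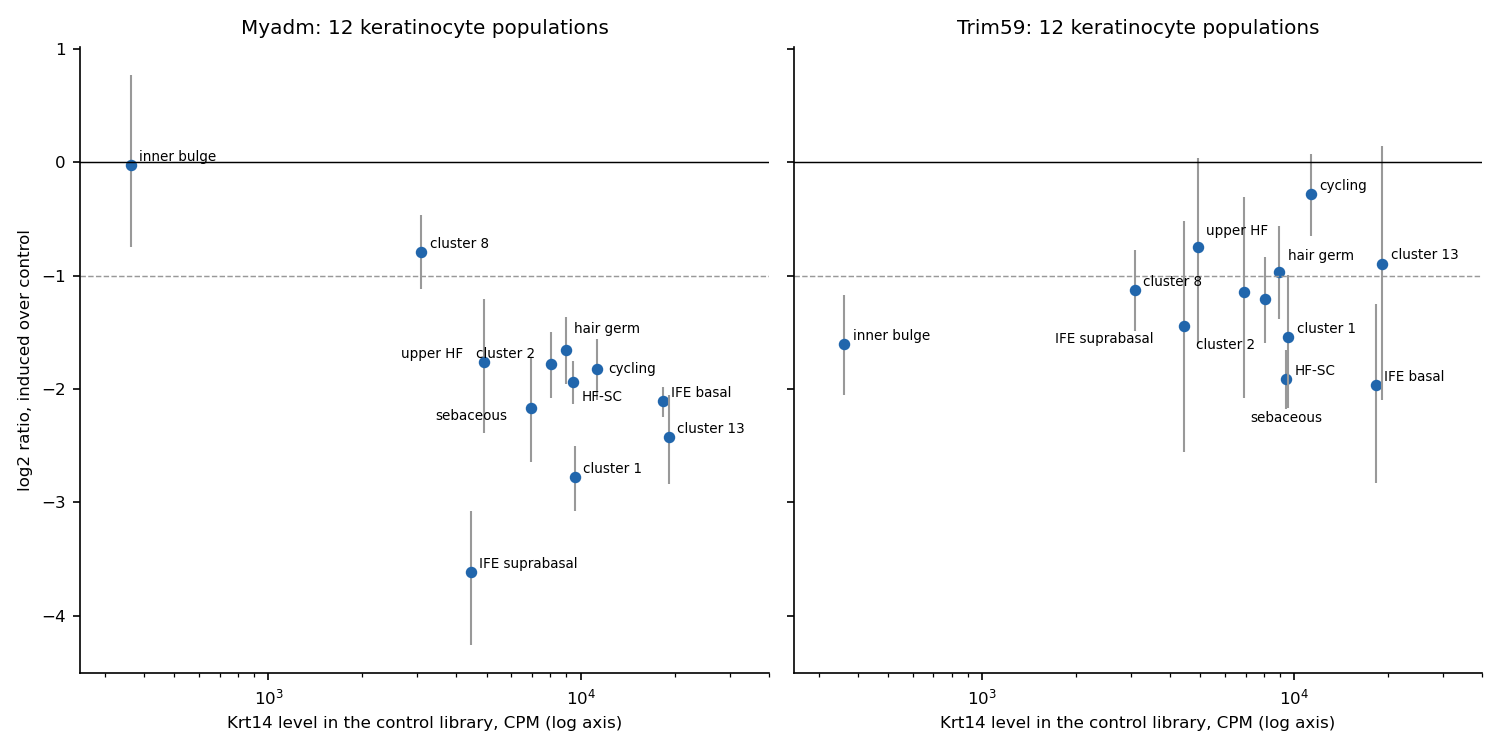
Log2 ratio of Myadm (left) and Trim59 (right), with 95% counting intervals, against the Krt14 level of the control library in CPM (log axis) for 12 keratinocyte populations. For Myadm the populations with the lowest Krt14, inner bulge-like at 363 CPM and cluster 8 at 3090 CPM, lie nearest to 0, and for Trim59 inner bulge-like cells lie at −1.60.

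Genes beside the pair on the chromosome showed no common direction in HF-SC-like cells. Next to Trim59, the condensin gene Smc4, 669 bases away, went from 185 to 135 UMIs, a log2 ratio of −0.44 (−0.78 to −0.12), the cilium gene Ift80 was at 0.40 (−0.18 to 1.01) and Schip1 at −1.18 with 28 and 12 UMIs. On the other side the importin gene Kpna4 was at −0.36 (−0.56 to −0.17), the phosphatase gene Ppm1l at 1.54 with 9 and 27 UMIs and Nmd3 at −0.38 (−0.64 to −0.13). Near Myadm, the respiratory chain gene Ndufa3 was at 0.31 (0.01 to 0.62) and Tfpt at −0.20 (−0.95 to 0.53). No gene on the lower-coordinate side of Myadm reached 20 UMIs.

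The families and partners of the pair are given by their counts in HF-SC-like cells. The pair itself was chosen on its ratio there, so a difference between it and these lists is no finding. The share of all genes at or below −1 was 2.3%, as above, and 3.6% lay at or above 1. Of 22 listed MARVEL and membrane raft genes, 17 had at least 20 UMIs, 8 were lower and 9 higher, and the median log2 ratio was 0.01 against 0.09 for all genes tested. The 2 at or below −1 were the raft trafficking gene Mal2, with 32 and 15 UMIs and a ratio of −1.06 (−2.07 to −0.16), and Cmtm8, a relative linked to EGF receptor turnover, with 78 and 29 UMIs and −1.40 (−2.09 to −0.79). The caveolar coat gene Cav1 was at −0.19 (−0.32 to −0.07) and the tight junction gene Ocln at −0.70 (−1.23 to −0.20).

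All 15 Rac1 and ERM genes were tested, 9 lower and 6 higher, with a median of −0.09 and none past −1 or 1. Rac1 itself was at −0.09 (−0.22 to 0.04), and the ERM genes were at −0.34 (−0.43 to −0.25) for ezrin (Ezr), 0.04 (−0.11 to 0.18) for radixin (Rdx) and −0.23 (−0.34 to −0.11) for moesin (Msn).

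Of 42 other listed TRIM genes, 26 had at least 20 UMIs, 8 were lower and 18 higher, and the median was 0.32 against 0.09 for all genes. Only Trim16 lay at or below −1, with 346 and 139 UMIs and a ratio of −1.30 (−1.60 to −1.02). Trim12c and Trim23 lay at 1.06, each on 7 and 15 UMIs. The keratinocyte gene Trim29 went from 351 to 534 CPM, 0.61 (0.50 to 0.71).

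Of 20 ECSIT and NF-kB genes, 12 were lower and 8 higher, with a median of −0.17. Ecsit had 40 and 49 UMIs and a ratio of 0.30 (−0.33 to 0.94). Birc3, an NF-kB target that blocks cell death, was at −1.03 (−1.75 to −0.37) on 58 and 28 UMIs. The inhibitor gene Nfkbia was at 0.30 (0.24 to 0.35). Other inhibitor genes were at −0.18 (−0.57 to 0.19) for Nfkbib, −0.16 (−0.53 to 0.20) for Tnfaip3 and 0.28 (−1.11 to 1.75) for Nfkbie. The NF-kB subunit genes were lower, each with an interval below 0. They were at −0.54 for Rela, −0.40 for Relb, −0.36 for Rel, −0.23 for Nfkb1 and −0.55 for Nfkb2. Of 24 dissociation stress genes, which respond to enzymatic release of cells, 4 were lower and 20 higher, with a median of 0.19, and only Socs3, a feedback inhibitor of cytokine signalling, passed the fold, at 1.38 (1.22 to 1.54). Sebaceous gland markers summed to 124 CPM in control and 59.8 CPM in induced HF-SC-like cells. That sum includes Mgst1, which had 237 control and 27 induced UMIs, a log2 ratio of −3.10 (−3.76 to −2.55). Of the 8 sebaceous markers, 4 had at least 20 UMIs, and only Mgst1 lay at or below −1. Smooth muscle markers summed to 14.3 and 6.90 CPM, and markers of T cells and mast cells to under 1 CPM. The part of stress and of these other markers in the Myadm and Trim59 values was not tested.

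**Figure D5:**
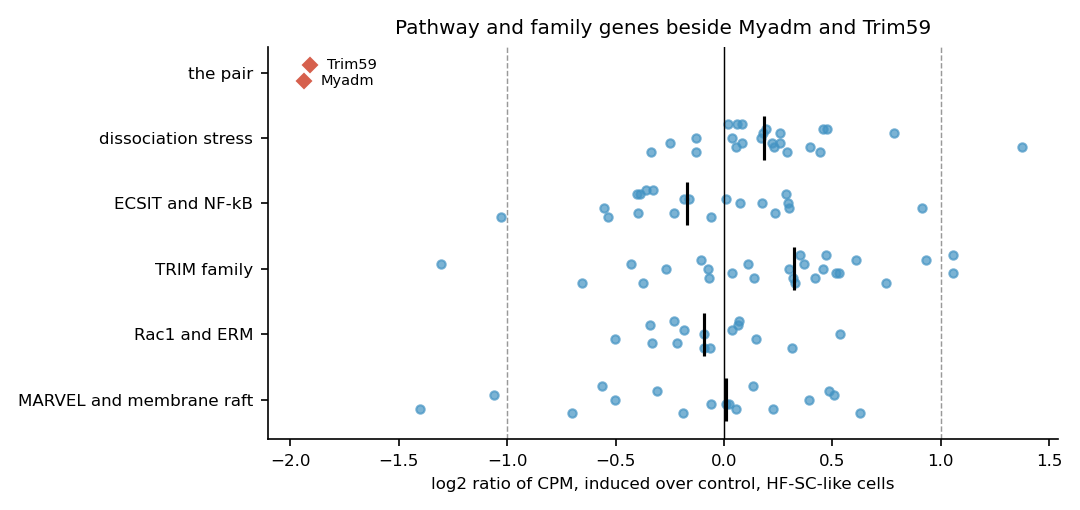
Log2 ratio of CPM, induced over control, in HF-SC-like cells for the genes of 5 lists (blue, 1 point per gene with at least 20 UMIs; black bar, median of the list) with Myadm and Trim59 as red diamonds; vertical offsets separate points only. List medians run from −0.17 to 0.32, and the pair, chosen on this ratio, lies at −1.94 and −1.91.

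The promoter windows of the pair shared none of 4 searched motifs. RefSeq windows on GRCm38.p6 ran from 250 bases before to 50 after each annotated start, 4 for Myadm and 1 for Trim59, and both strands were searched. A CArG box, the sequence bound by serum response factor, was found in 1 Myadm window, 191 bases before its start. Of 32851 windows, 1.63% held a CArG box. Some forms of this box can hold CCAAT, another searched motif, but no Myadm window held CCAAT. The CArG box found is shown in capitals from the plus strand, chr7:3292827-3292856.
Myadm promoter: aacttaaagcCCTTATAAGGagcagagact
The Trim59 window held CCAAT, read as ATTGG on its strand, 61 bases before the start, a motif in 37.4% of windows. It is shown from the minus strand, chr3:69044786-69044815.
Trim59 promoter: ccgcgctctctcATTGGcggaggcggcgcg
The same window held TTTGAA, as TTCAAA, 85 bases before the start, which 17.9% of windows did. Neither gene held the AP-1 motif TGANTCA, found in 7.81% of windows. These are matches of letters, and no binding was measured.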

How the data were processed

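Counts of UMIs per gene and barcode were made and deposited by the authors with Cell Ranger (3.0.1 per the file headers; build mm10 per the submitters' processing notes), as raw whole numbers without normalization. The single-cell filter of the study was applied here (over 200 and under 5000 genes, under 10% mitochondrial UMIs). Libraries were integrated in Seurat 5.3.0 (R 4.3.3) with 2000 variable genes, from which Myadm, Trim59 and all listed genes were withheld, 30 dimensions and resolution 0.8, giving 24 clusters, 19 of them named. A name needed at least 3 markers with at least 20 UMIs in the cluster, raised at least 2-fold and present in 10% of its cells, 1 of them within the 10 leading genes, where markers of no second class could outnumber them; this rule was set after the data were seen, as were the promoter motifs. Populations under 50 cells (endothelial-like) were not compared. Doublets were kept; Scrublet (scanpy 1.11.5) marked 4 and 5 barcodes by its own threshold, which was not used.

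UMIs were summed per population and library and divided by the population total (CPM). Log2 ratios used a pseudocount of 0.5 UMIs and at least 20 UMIs over both libraries. Intervals at 95% were exact Poisson (CPM), Clopper-Pearson (shares) and conditional binomial (ratios). The code was tested on simulated data. The genes and the lists (MARVEL and membrane raft, Rac1 and ERM, TRIM family, ECSIT and NF-kB, dissociation stress) were chosen with earlier results of these data known. Other named genes were the 3 ranked on each side of the pair, up to 3 measured neighbours per side on the chromosome, the 5 most alike per gene, listed genes past the fold, and class markers (some are not reported here); Cav1, Ocln, Rac1, the ERM genes, Trim29, Ecsit and Nfkbia were added after their values were seen. Alternatives varied the cell filter, doublets, scaling, clustering, gating and thinning. Untranslated regions came from an NCBIM37 annotation; promoters and the microRNA from RefSeq GRCm38.p6.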

Additional observations from a re-analysis of the deposited data

Results flagged for a closer look

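In Schwann-like cells the log2 ratio of Myadm was 1.39 (0.34 to 2.76), above 0, whereas in 13 other populations the counting interval lay below 0. The value rests on 8 control and 40 induced UMIs, and the difference in direction was not tested. It was 0.82 under 5% mitochondrial UMIs and 0.82 without the highest-scoring doublets. The first of these values left out 22 of 26 control cells and 7 of 8 control UMIs, so it rests on very few. Median-of-ratios scaling shifted ratios in Schwann-like cells by 0.12 and gave 1.51.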

How the results depend on the processing

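No alternative turned the direction of a value whose counting interval left 0, while Myadm in antigen-presenting-like cells, at 0.01, was −0.10 under 5% mitochondrial UMIs. Of 127 values recomputed over 35 results, 113 stayed within the counting interval of the reported value. In HF-SC-like cells, Trim59 moved from a log2 ratio of −1.91 to −2.25 under 5% mitochondrial UMIs and to −2.20 in cells gated on Cd34 and Krt24. Cluster 4 alone gave −2.18 for Myadm and −2.24 for Trim59, and cluster 15 alone gave −0.99 and −1.15, a split made after seeing the data, as were 2 others that stayed within the interval (5% mitochondrial UMIs or more, and without shared barcodes). Over all kept cells, Myadm moved from −1.89 to −1.98 with median-of-ratios scaling and to −1.63 as a mean over cells of CPM. The difference in the share of HF-SC-like cells with Myadm went from −42.1 to −27.0 percentage points when cells were thinned to 2500 UMIs. The share of genes at or below −1 in HF-SC-like cells was 2.30% at 20 UMIs and 1.28% at 100 UMIs. The causes were not tested. In single populations, 4 values moved, all under 5% mitochondrial UMIs and to between −1.60 and −1.20; one of them, Trim59 in hair germ-like cells, went from −0.97 to −1.39 and so past −1, and 6 had under 20 UMIs left there and gave no value. No paired analysis was possible because each group holds 1 library. Depth limits Trim59 outside keratinocytes, where no ratio was formed, and differences between mice were not measured.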
